A study of Mus musculus with 57 samples.

Results

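Epiblast stem cells (EpiSCs) lacking Wnt3 were profiled for 4 chromatin features before any Wnt stimulus, and the combinations in which those features met on the genome are described here. The members are the regions made by merging the 6 peak lists of these cells at 0 h, 1 each for H3K4me3 and H3K27ac and 2 replicates each for H3K27me3 and Ring1b, wherever peaks shared at least 1 bp. H3K27me3 and Ring1b were counted in a region when both replicates had a peak there. The 6 lists held 42335 peaks on the autosomes and the X chromosome, which merged into 21731 regions, and the 6 libraries were 6 of the 57 samples of the series.

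H3K4me3 is laid down at the start sites of genes, above all at CpG-rich promoters, whether or not the gene is strongly transcribed. H3K27ac marks active promoters and enhancers, and it occupies the same lysine as H3K27me3, so a histone tail can carry either of them but not both. H3K27me3 is written by Polycomb repressive complex 2, and Ring1b is the ubiquitin ligase of Polycomb repressive complex 1, which is recruited in part through H3K27me3. Promoters that hold H3K4me3 together with H3K27me3 are called bivalent, and in pluripotent cells they belong mostly to developmental regulators that are held at low expression. Below, bivalent names a merged region with both marks and no H3K27ac, whether or not it lies at a promoter. Peak lists do not show whether both marks sat in the same cell.

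The series used ChIP-seq, ATAC-seq and 4C on mouse EpiSCs and early embryos to follow chromatin during Wnt activation. The cells were derived from E6.0 embryos and cultured with Fgf-basic, Activin A and IWP2, an inhibitor of Wnt secretion, at 2 µM. The labels of both H3K27me3 and both Ring1b libraries name IWP2, whereas those of the H3K4me3 and H3K27ac libraries say that no Wnt stimulation was given and do not repeat the inhibitor. Every one of the 6 libraries came from the Wnt3KO line. The number of clones behind it is not stated in the labels, and the replicates are not said to be separate cultures. Readouts that did not enter the combinations were ATAC-seq of wild-type EpiSCs in IWP2 (1 library), ATAC-seq of wild-type E6.0 embryos (2), H3K27ac in wild-type EpiSCs in IWP2 (1), the 4 marks in Wnt3KO EpiSCs after 72 h of CHIR99021 at 3 µM (1 each), and 2 inputs of Wnt3KO EpiSCs in IWP2. Chromatin opening was therefore measured in cells of another genotype than the marks. No test was run, since H3K4me3, H3K27ac and ATAC-seq had 1 library each and regions are not replicates. The intervals given are 95% Wilson intervals for shares and 95% Poisson intervals for counts, and they cover counting error only.

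The lists gave 16279 H3K4me3 peaks with a median length of 1237 bp and 12127 H3K27ac peaks with a median of 542 bp. H3K27me3 gave 4327 peaks (median 500 bp) in replicate 1 and 6230 (527 bp) in replicate 2. Ring1b gave 1596 (615 bp) and 1776 (543 bp). H3K4me3 covered 21.21 Mb, about 0.804% of the mapped extent of the chromosomes, while H3K27ac covered 7.736 Mb. The bases shared by both replicates came to 2.243 Mb for H3K27me3 and 0.9527 Mb for Ring1b. Read counts are not part of these lists. Depth is thus unknown, and a mark missing from a region may have been missed.

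The promoters of 4 genes are shown as examples of genes whose starts carried different combinations. T (Brachyury), a mesoderm regulator activated by Wnt signalling, had H3K4me3, H3K27me3 and Ring1b over its start. Sox2, a transcription factor of pluripotent and neural cells, had H3K4me3 and H3K27ac. Pou5f1 (Oct4) and Nanog, the other two pluripotency factors looked at, had H3K4me3 without any of the remaining marks. The sequences are the RefSeq promoters of assembly GRCm38.p6, 300 bases on the plus strand with CG dinucleotides in capitals, and not the peaks themselves, which are in mm9. They lie at chr17:8434173-8434472 for T, chr3:34649745-34650044 for Sox2, chr17:35505782-35506081 for Pou5f1 and chr6:122707239-122707538 for Nanog. Pou5f1 and Nanog have 2 entries each in the table, and the first of them is shown.
T: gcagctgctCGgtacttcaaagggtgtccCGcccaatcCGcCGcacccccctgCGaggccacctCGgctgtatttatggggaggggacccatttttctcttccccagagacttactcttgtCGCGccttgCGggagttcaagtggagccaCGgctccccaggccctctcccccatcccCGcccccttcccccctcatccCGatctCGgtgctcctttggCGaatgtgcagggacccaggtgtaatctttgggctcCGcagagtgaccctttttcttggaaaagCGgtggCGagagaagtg
Sox2: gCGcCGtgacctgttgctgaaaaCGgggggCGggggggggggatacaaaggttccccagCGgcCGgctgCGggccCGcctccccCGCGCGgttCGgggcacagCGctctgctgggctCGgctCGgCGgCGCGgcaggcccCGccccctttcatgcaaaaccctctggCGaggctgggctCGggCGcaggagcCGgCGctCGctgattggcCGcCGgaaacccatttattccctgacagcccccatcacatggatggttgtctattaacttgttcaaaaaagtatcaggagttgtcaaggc
Pou5f1: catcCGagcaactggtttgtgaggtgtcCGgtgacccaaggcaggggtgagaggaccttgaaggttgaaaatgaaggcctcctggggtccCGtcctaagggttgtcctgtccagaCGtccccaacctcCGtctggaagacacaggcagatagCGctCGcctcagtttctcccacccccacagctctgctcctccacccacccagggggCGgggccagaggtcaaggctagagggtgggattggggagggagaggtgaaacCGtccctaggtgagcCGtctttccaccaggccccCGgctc
Nanog: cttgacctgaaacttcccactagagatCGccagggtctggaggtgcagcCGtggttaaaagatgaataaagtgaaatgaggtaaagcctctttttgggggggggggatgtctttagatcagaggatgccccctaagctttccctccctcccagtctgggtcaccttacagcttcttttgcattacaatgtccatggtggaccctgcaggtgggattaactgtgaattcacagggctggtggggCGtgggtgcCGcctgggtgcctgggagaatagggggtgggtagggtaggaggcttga
The Sox2 promoter held 27 CG dinucleotides, a number reached by 15.5% of the 32851 promoters in the table. The T promoter held 17, reached by 31.4%, and the Pou5f1 promoter 11, reached by 41.4%. The second Pou5f1 entry, at chr17:35508557-35508856, held 6, reached by 56.4%. Both Nanog entries held 4, which is below the median of 7 and was reached by 68.6%. CG reads the same on both strands, and these counts describe 4 promoters and say nothing about the other members of a combination.

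Of the 15 combinations that 4 marks allow, 14 occurred. H3K4me3 with H3K27ac was the most frequent, with 8684 regions (interval 8502 to 8869). H3K4me3 alone followed with 6001 regions (27.6%), and H3K27ac alone had 1498 (6.89%). Bivalent regions without Ring1b or H3K27ac numbered 789 (734.9 to 846), and those with Ring1b 378 (340.8 to 418.1). When peaks were joined only if they shared 50% of the shorter peak, these numbers were 539 and 360. H3K27me3 without any other mark was found in 1032 regions, H3K27me3 with Ring1b in 222, Ring1b alone in 93 and H3K4me3 with Ring1b in 65. All 4 marks met in 77 regions, and H3K4me3, H3K27ac and H3K27me3 in 91. The remaining combinations were rare: H3K4me3, H3K27ac and Ring1b had 10 regions, H3K27ac, H3K27me3 and Ring1b 5, and H3K27ac with H3K27me3 4. H3K27ac with Ring1b and nothing else was the combination that did not occur. A further 2782 regions (12.8%) had a Polycomb peak in 1 replicate and no mark that was counted.

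**Figure D1:**
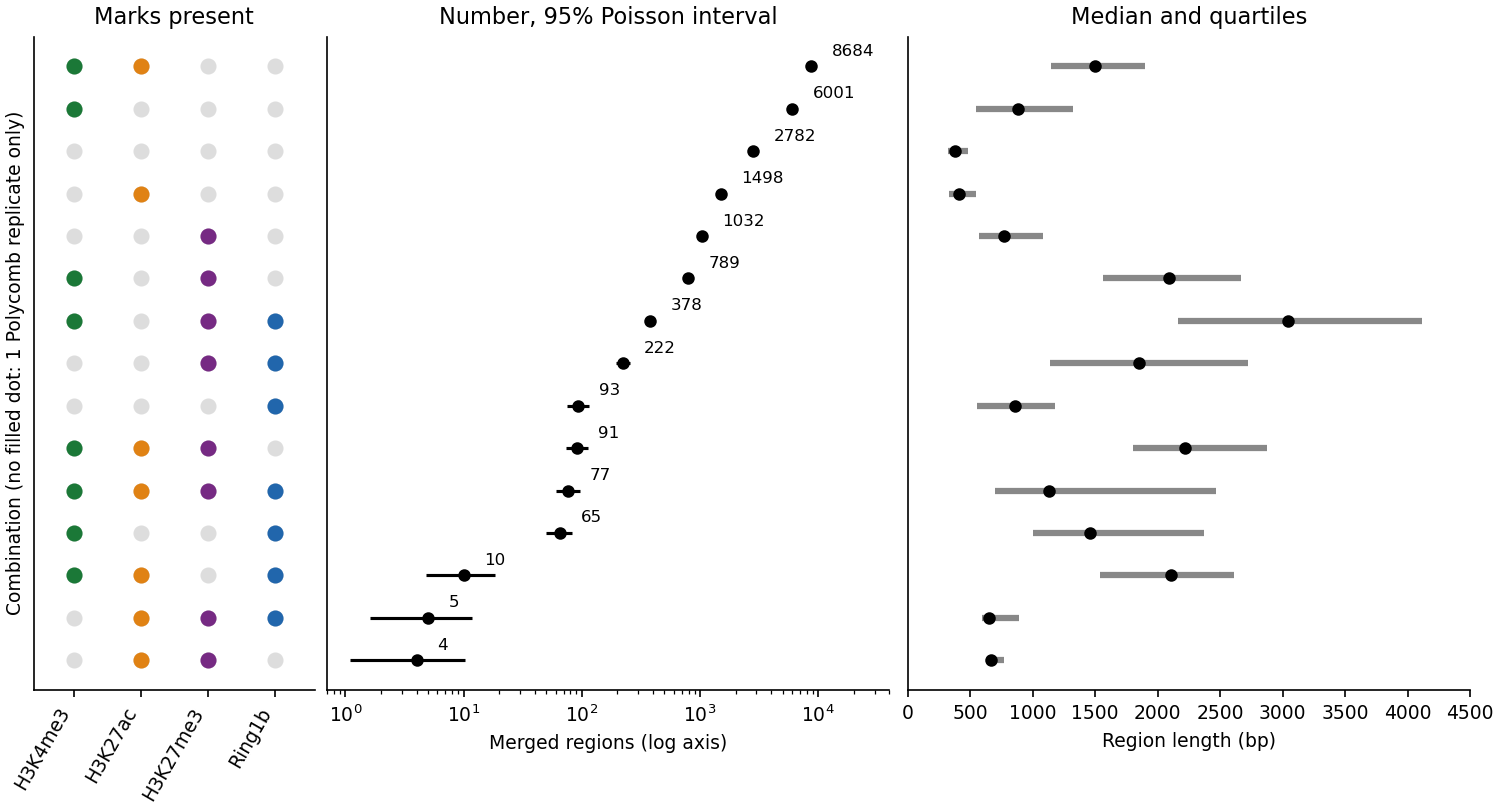
Merged regions by combination of marks in unstimulated Wnt3KO EpiSCs. The left panel shows which marks are present (filled dots), the middle panel the number of regions on a log axis with 95% Poisson intervals, and the right panel the median region length in bp with its quartiles; the longest regions are the 378 with H3K4me3, H3K27me3 and Ring1b, at a median of 3045 bp.

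Regions with H3K4me3 and another mark, and those with H3K27me3 and Ring1b, had longer medians than regions with 1 mark, whereas the 4 regions with H3K27ac and H3K27me3 (664.5 bp) and the 5 with H3K27ac, H3K27me3 and Ring1b (647 bp) did not stand above all of those. Regions with all 4 marks had a median of 1129 bp. The median length was 408 bp for H3K27ac alone, 767.5 bp for H3K27me3 alone, 857 bp for Ring1b alone and 879 bp for H3K4me3 alone. With 2 marks it was 1497 bp for H3K4me3 with H3K27ac, 1847.5 bp for H3K27me3 with Ring1b and 2091 bp for H3K4me3 with H3K27me3. Bivalent regions with Ring1b reached 3045 bp (quartiles 2159.5 and 4113.8 bp). A merged region spans all its peaks, so a part of this order follows from the merging. Among the 100 longest regions, all of at least 4644 bp, 63 were bivalent with Ring1b and 15 carried H3K4me3 with H3K27ac. In covered bases the order was another: H3K4me3 with H3K27ac took 13.65 Mb, 51.5% of all bases in merged regions, H3K4me3 alone 5.995 Mb, bivalent regions 1.715 Mb without Ring1b and 1.266 Mb with it, H3K27me3 alone 0.9285 Mb and H3K27ac alone 0.7129 Mb.

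By the ratio of observed to expected overlap, the 2 Polycomb features stood highest among pairs of different marks. Ring1b peaks of replicate 1 overlapped H3K27me3 of replicate 1 in 70.1% of cases, against 0.246% expected if peaks of the same lengths fell anywhere on the same chromosome with equal chance. For replicate 2 of both the share was 73.5%, against 0.356%. Such a ratio can rise higher for marks that cover fewer bases. H3K27ac peaks met H3K4me3 in 87.55% of cases, a larger share, against 1.25% expected. Over merged regions, 80.2% of Ring1b regions (77.4% to 82.8%) held H3K27me3, while 26.3% of H3K27me3 regions (24.6% to 28.0%) held Ring1b. H3K4me3 was present at 51.4% of H3K27me3 regions and at 62.4% of Ring1b regions. Conversely, 8.30% of H3K4me3 regions held H3K27me3 and 3.29% held Ring1b. Uniform placement is a low bar, since all these features gather near genes.

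The Polycomb replicates, which came from different processing folders of the authors, were each set against H3K4me3. H3K4me3 met 35.7% of the H3K27me3 peaks of replicate 1 and 39.2% of replicate 2, and 49.2% and 51.9% of the Ring1b peaks. Counted over the H3K4me3 peaks, 8.25% met H3K27me3 of replicate 1 and 12.5% that of replicate 2, and 4.62% and 5.12% met Ring1b. Replicate 2 of both stood in the same folder as H3K4me3 and H3K27ac, and replicate 1 in that of the inputs.

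At single bases, H3K27ac without H3K4me3 covered less than the product of the marks' coverage, both alone and with exactly 1 Polycomb feature. H3K27ac with H3K27me3 and no other mark covered 2.959 kb, against 7.19 kb expected from the coverage of each mark, or 0.412 times the expectation. With Ring1b and no other mark it covered 0.319 kb against 2.97 kb, or 0.108 times. With both H3K27me3 and Ring1b it covered 3.388 kb against 0.00313 kb, and all 5 merged regions with these 3 marks lay on input peaks. By contrast, H3K4me3 with H3K27ac covered 6830 kb, 103 times its expectation, H3K27me3 with Ring1b 337.7 kb, 362 times, and H3K4me3 with H3K27me3 376.4 kb, 19.1 times. The bases under H3K4me3, H3K27me3 and Ring1b without H3K27ac came to 138.4 kb. Each of these values leaves out bases that carried a further mark. All 4 marks lay together on 43.22 kb, described with the inputs. H3K4me3 alone covered 0.648 times and H3K27ac alone 0.110 times what independent marks would give. Where H3K4me3 was present too, H3K27ac with H3K27me3 and no Ring1b covered 9.185 kb, 137 times its expectation. H3K27ac with Ring1b and no H3K27me3 covered 3.43 kb there, 127 times. Whole H3K27ac peaks met H3K27me3 of the 2 replicates in 0.990% and 1.245% of cases, against 0.211% and 0.319% expected. For Ring1b the shares were 0.990% and 1.27%, against 0.0902% and 0.0944%. The low values thus held only without H3K4me3. There H3K27ac was low with no Polycomb feature too (0.110 times), so these values do not measure avoidance of Polycomb.

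H3K4me3 ranked highest in regions with H3K27ac and no Polycomb mark. For each region the highest fold enrichment by the authors was ranked within its list, from 0 for the lowest to 100 for the highest. The median H3K4me3 percentile was 68.8 (quartiles 47.7 and 85.5) in regions with H3K4me3 and H3K27ac only, 36.0 in bivalent regions without Ring1b, 28.0 in regions with H3K4me3 alone, 21.9 in bivalent regions with Ring1b and 16.8 in regions with H3K4me3 and Ring1b. It was 61.4 in the 10 regions with H3K4me3, H3K27ac and Ring1b, 60.5 in the 91 with H3K4me3, H3K27ac and H3K27me3, and 26.2 in the 77 with all 4 marks. Among the first 5 of these combinations the interquartile ranges overlapped between neighbours in the order, and the range of the regions with H3K27ac (from 47.7) overlapped that of the bivalent regions without Ring1b (to 53.1) but not that of the bivalent regions with Ring1b (to 35.3). H3K4me3 peaks were also longer with H3K27ac, at a median of 1481 bp against 857 bp alone and 837 bp in bivalent regions with Ring1b.

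The H3K4me3 regions were also divided into quartiles by fold. H3K27ac was present at 17.5% of the lowest quartile (folds 2.42 to 12.2), 45.1% of the next, 69.2% of the third and 88.5% of the highest (33.6 to 70.6). H3K27me3 went the other way, from 13.0% to 11.6%, 6.69% and 1.91%. Ring1b stood at 7.70%, 3.603%, 1.52% and 0.348%. Regions with H3K4me3 alone made up 69.5% of the lowest quartile and 10.3% of the highest. A weak peak is harder to call in any list, and how far peak strength decided these shares was not tested.

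**Figure D2:**
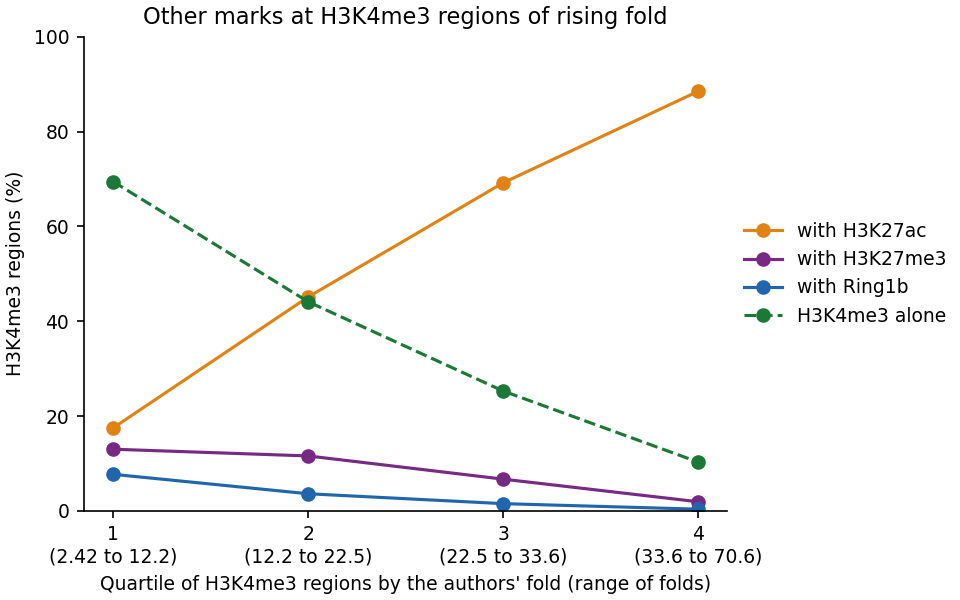
Share of H3K4me3 regions that held each other mark (percent, vertical axis) in quartiles of the authors' H3K4me3 fold enrichment (horizontal axis). H3K27ac climbs from 17.5% to 88.5%, while H3K27me3 goes from 13.0% to 1.91% and Ring1b from 7.70% to 0.348%.

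H3K27ac was seldom found away from H3K4me3. Of the 10369 regions with H3K27ac, 85.5% (84.8% to 86.1%) also held H3K4me3, and conversely 55.1% of H3K4me3 regions held H3K27ac. The 1498 regions with H3K27ac alone, where enhancers would be sought, had short and weak peaks: the median length was 405 bp against 571 bp with H3K4me3, and the median percentile 21.6 against 60.4. Another region of the same kind lay within 10 kb of 32.8% of them, while the median gap to the nearest was 118 kb, and 28.6% had an H3K4me3 peak that near, against 11.2% expected. Polycomb lay beside few of them: 1.34% had H3K27me3 within 10 kb, against 1.54% expected, and 0.601% had Ring1b, against 0.475%.

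Inside shared regions the marks were arranged differently. The summits of H3K4me3 and H3K27ac lay a median of 84 bp apart (quartiles 34 and 213 bp). Between H3K4me3 and H3K27me3 the median was 693 bp for replicate 1 and 628 bp for replicate 2 in bivalent regions without Ring1b, and 938 and 906 bp in those with Ring1b. In bivalent regions with Ring1b, the Ring1b summits of the 2 replicates lay a median of 520 and 642 bp from the H3K4me3 summit. Distances were taken without regard to side, so they do not give the order of the marks along a region. The replicates of H3K27me3 themselves lay 224 bp apart in bivalent regions without Ring1b and 422 bp in those with it, less than their distance to H3K4me3. In bivalent regions with Ring1b, H3K4me3 filled a median of 43.0% of the region, H3K27me3 56.7% and 77.0%, and Ring1b 58.9% and 60.5%. H3K27me3 was split there into a mean of 2.12 and 2.01 peaks a region, and H3K4me3 into 1.27. Peaks of H3K4me3 and H3K27me3 shared bases in 87.8% and 96.0% of these regions for the 2 replicates, and in the others they were joined through another peak.

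H3K27me3 ranked higher in bivalent regions than in regions with H3K27me3 but no H3K4me3 or H3K27ac. Its median percentile was 71.7 and 84.6 in the 2 replicates for bivalent regions without Ring1b, 77.4 and 77.5 with Ring1b, and 45.4 and 49.6 for H3K27me3 alone. In the 222 regions with H3K27me3 and Ring1b but no H3K4me3 it was 51.2 and 49.5. The Ring1b percentiles were 76.0 and 76.1 in bivalent regions, 60.6 and 65.6 in regions with H3K27me3 and Ring1b and 31.6 and 39.6 in regions with Ring1b alone. The regions with all 4 marks, mostly on input peaks, ranked above these, at 98.5 and 97.2 for H3K27me3 and 92.7 and 83.9 for Ring1b. Each order was the same in both replicates, except that for H3K27me3 the bivalent regions with and without Ring1b changed places and so did H3K27me3 alone and H3K27me3 with Ring1b. These ranks are of the highest peak in a region, and a maximum over more peaks tends to be higher. H3K27me3 had a mean of 1.4 and 1.43 peaks a region in bivalent regions without Ring1b and 2.12 and 2.01 with it. The means were 1.1 and 1.09 for H3K27me3 alone and 1.54 and 1.48 for H3K27me3 with Ring1b. How far peak number set the order was not tested.

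Polycomb regions without H3K4me3 mostly bordered on it. Of the 1032 regions with H3K27me3 alone, 81.9% had an H3K4me3 peak within 10 kb, against 11.9% expected, and 34.9% had Ring1b, against 0.51%. For the 222 regions with H3K27me3 and Ring1b the share near H3K4me3 was 86.0%. Such regions also lay near each other, since 54.5% of those with H3K27me3 and Ring1b and 45.6% of those with H3K27me3 alone had another of their kind within 10 kb. Bivalent regions without Ring1b were dispersed, at 7.10%, while those with Ring1b stood at 40.7%. When peaks up to 1 kb apart were joined, 350 regions with H3K27me3 alone, 26 with Ring1b alone and 24 with H3K4me3 and Ring1b were left.

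Many regions had a Polycomb mark in 1 replicate and not in the other. H3K27me3 was found in 3317 regions by replicate 1 and in 5159 by replicate 2, and 2598 had both, which is 78.3% of the former and 50.4% of the latter. For Ring1b the numbers were 1209, 1325 and 850, or 70.3% and 64.2%. Regions seen in 1 replicate had weaker peaks. The median −log10 q of H3K27me3 was 5.79 against 8.50 in replicate 1 and 7.07 against 12.2 in replicate 2, and that of Ring1b 7.83 against 15.1 and 7.0 against 13.6. H3K27me3 was in 1 replicate at 52 of the 93 regions with Ring1b alone and at 39 of the 65 with H3K4me3 and Ring1b. In the other direction, Ring1b was in 1 replicate at 10.95% of regions with H3K27me3 alone and at 17.1% of bivalent regions without Ring1b. Taking replicate 2 by itself gave 3194 regions with H3K27me3 alone and 1262 bivalent regions without Ring1b, and replicate 1 by itself 2189 of the former. Regions with Ring1b alone numbered 303 by replicate 2 and 292 by replicate 1, against 93 by both.

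Regions with all 4 marks were for the most part places that also gave peaks without an antibody. Of the 77 regions, 62 (80.5%) shared bases with a peak of the inputs, against 1.53% of all 21731 merged regions. These 62 had a median length of 962 bp. In the 77, the median distance between summits was 12 bp (quartiles 2 and 178 bp) for H3K4me3 and H3K27ac. For H3K4me3 and H3K27me3 it was 54 bp (3 and 639 bp) in replicate 1 and 46 bp (2 and 543 bp) in replicate 2. All 4 regions with H3K27ac and H3K27me3 and all 5 with H3K27ac, H3K27me3 and Ring1b were also on input peaks. Away from the inputs, 15 regions with all 4 marks remained, with a median of 3753 bp. Leaving out regions on input peaks lowered the share of Ring1b regions with H3K27ac from 10.8% to 3.23% and that of H3K27me3 regions with H3K27ac from 6.81% to 4.15%, whereas the share of Ring1b regions with H3K27me3 went from 80.2% to 78.9%.

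Most regions with H3K4me3 lay on open chromatin. Of all merged regions, 78.6% shared bases with an ATAC-seq peak of wild-type EpiSCs. With H3K4me3 and H3K27ac 8663 of 8684 were open (99.8%, interval 99.6% to 99.8%), and uniform placement would give 3.52%. With H3K4me3 alone the share was 93.3% (92.7% to 93.9%) against 2.59% expected, in bivalent regions without Ring1b 92.9% (90.9% to 94.5%) against 4.50%, in bivalent regions with Ring1b 92.3% (89.2% to 94.6%) against 6.06%, and with H3K4me3 and Ring1b 93.8% (85.2% to 97.6%) against 3.62%. The intervals of these last 4 shares overlapped. Of the 77 regions with all 4 marks 67 were open (87.0%, 77.7% to 92.8%), which were 52 of the 62 on input peaks and all 15 of the others.

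Regions without H3K4me3 were open less often. The share was 73.9% for H3K27ac alone (71.6% to 76.1%), 40.1% for H3K27me3 with Ring1b (33.9% to 46.7%), 30.1% for Ring1b alone (21.7% to 40.1%) and 10.9% for H3K27me3 alone (9.10% to 12.9%). Every one of these was above uniform placement, which gave 1.83%, 4.26%, 2.61% and 2.57%. Regions with a Polycomb peak in 1 replicate were open in 6.11%. For Polycomb regions without H3K4me3, the gap to regions with H3K4me3 was also present within a single class of length. Among regions of 1000 to 2000 bp, 98.5% of those with H3K4me3 alone were open, 90.7% of bivalent regions without Ring1b, 32.1% with Ring1b alone, 24.1% with H3K27me3 and Ring1b and 17.6% with H3K27me3 alone. For H3K27ac alone the share in that class was 47 of 49 (95.9%, 86.3% to 98.9%). H3K27me3 alone, over all lengths, was open in 6.45% of regions when H3K27me3 was judged by replicate 2 by itself and in 6.99% by replicate 1. It stood at 25.04% when peaks were joined only if they shared 50% of the shorter peak, a rule that leaves more H3K27me3 beside H3K4me3 as regions of its own. In the lowest H3K4me3 quartile 87.0% with H3K4me3 alone, 79.5% of bivalent regions without Ring1b and 87.1% with Ring1b were open, against 98.0% with H3K27ac. In the next quartile the 4 shares were 98.2%, 99.0%, 100.0% and 99.7%.

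**Figure D3:**
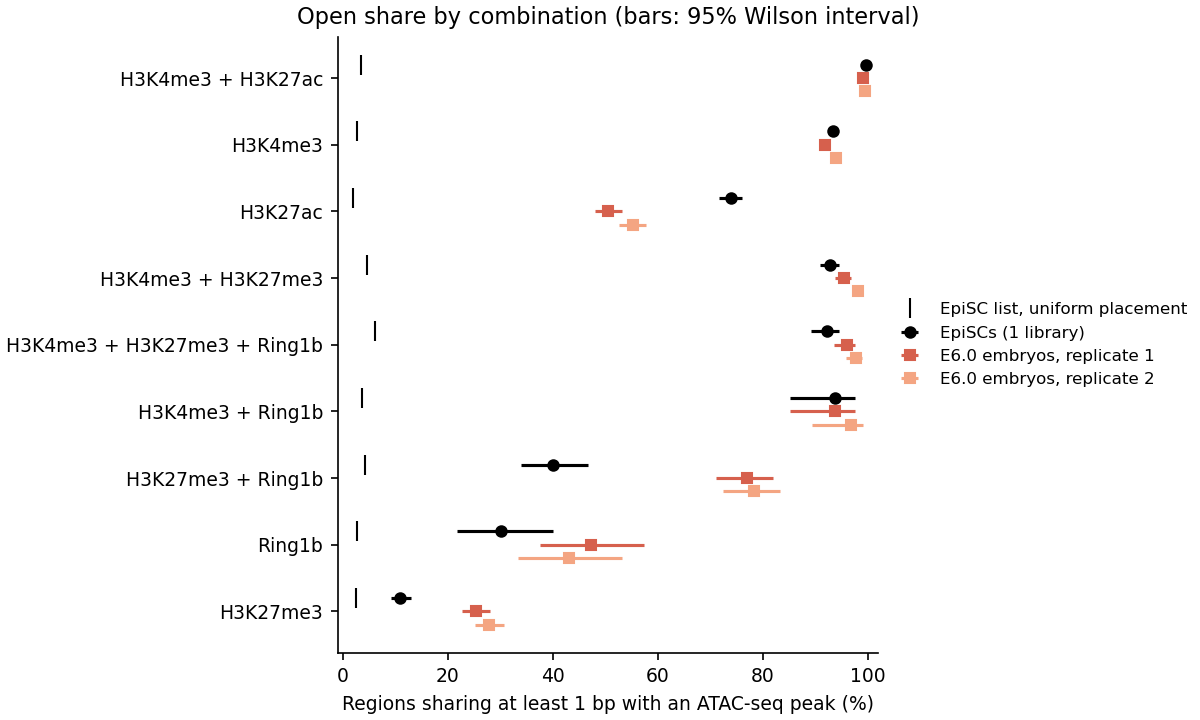
Share of regions sharing at least 1 bp with an ATAC-seq peak (percent) for 9 combinations, in wild-type EpiSCs (circles, 1 library) and in the 2 libraries of E6.0 embryos (squares), with 95% Wilson intervals; vertical ticks give uniform placement for the EpiSC list. All 5 of the drawn combinations with H3K4me3 stand above 90% in each library, and H3K27me3 with Ring1b moves from 40.1% in EpiSCs to 77.0% and 78.4% in embryos.

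Overlap with open chromatin did not put its centre inside the marked region in every combination. When the ATAC-seq summit had to lie in the region, the open share of H3K27ac alone went from 73.9% to 17.5% and that of H3K27me3 alone from 10.9% to 4.07%. For H3K4me3 alone it went to 70.8%, for H3K4me3 with H3K27ac to 87.4% and for bivalent regions with Ring1b to 84.1%. The H3K27ac summit lay a median of 439 bp from the nearest ATAC-seq summit in regions with H3K27ac alone and 320 bp with H3K4me3. The H3K27me3 summit lay 1897 and 1851 bp away in regions with H3K27me3 alone. Where the regions were open, ATAC-seq peaks filled a median of 68.0% of regions with H3K4me3 and H3K27ac, 34.9% of bivalent regions with Ring1b and 14.3% of regions with H3K27me3 alone. The ATAC-seq peaks there ranked at median percentiles of 87.0, 57.7 and 38.7 of their list by the authors' fold.

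In E6.0 embryos, the stage from which EpiSCs were derived, Polycomb regions without H3K4me3 were open more often than in EpiSCs. Both embryo lists were longer than that of EpiSCs (57400 and 61767 peaks against 41230), and 78.9% and 80.2% of all merged regions overlapped them. H3K27me3 with Ring1b was open in 77.0% and 78.4% of regions, against 40.1% in EpiSCs, and the intervals did not overlap. H3K27me3 alone was open in 25.3% and 27.9%, against 10.9%. In the other direction, H3K27ac alone was open in 50.6% and 55.2%, against 73.9%, although the embryo lists were longer. H3K4me3 with H3K27ac stood at 99.2% and 99.5%. Depth was unknown in all 3 libraries, and embryo tissue and cell culture cannot be told apart from differences between libraries here.

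H3K27ac of wild-type EpiSCs, 1 library in another processing folder of the authors, was set beside the Wnt3KO pattern. Genotype and library cannot be told apart here. Against 12127 H3K27ac peaks in Wnt3KO cells, the wild-type list held 14427. That list overlapped 42.1% of all merged regions. It was present at 81.5% of the regions with H3K4me3 and H3K27ac and at 49.2% of those with H3K27ac alone. Regions without H3K27ac in the Wnt3KO cells had it in 20.7% with H3K4me3 alone, 2.12% of bivalent regions with Ring1b, 0.761% of those without, and 0.291% with H3K27me3 alone. Uniform placement would give 0.916%, 1.94%, 1.48% and 0.912%, so bivalent regions without Ring1b and regions with H3K27me3 alone stood below it, though on 6 and 3 regions. The 91 regions with H3K4me3, H3K27ac and H3K27me3 in Wnt3KO had wild-type H3K27ac in 14.3%, and their H3K27ac percentile in Wnt3KO was 21.9.

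After 72 h of CHIR99021, an inhibitor of GSK3 that activates the Wnt pathway, the combinations differed in what was still listed. The 72 h lists overlapped 72.3% (H3K4me3), 38.4% (H3K27ac), 9.35% (H3K27me3) and 2.31% (Ring1b) of all merged regions of 0 h. H3K4me3 was listed again at 99.4% of the regions with H3K4me3 and H3K27ac, 90.6% with H3K4me3 alone, 91.3% of bivalent regions without Ring1b and 90.5% with it. H3K27ac was listed again at 81.9% of the regions it shared with H3K4me3 but at 12.1% of those where it stood alone. H3K27me3 was listed at 62.2% and 63.8% of bivalent regions without and with Ring1b, 45.05% with H3K27me3 and Ring1b, and 30.8% with H3K27me3 alone. Ring1b was listed at 28.6% of bivalent regions with Ring1b, 29.3% with H3K27me3 and Ring1b, and 31.2% of regions with Ring1b alone. H3K27ac was listed at 5.07% and 8.47% of bivalent regions without and with Ring1b, where uniform placement would give 1.06% and 1.41%. Of these bivalent regions, 8 of 789 and 17 of 378 lay on input peaks. How many of those had H3K27ac at 72 h was not counted. The 72 h lists of H3K27me3 and Ring1b were short (3142 and 598 peaks), came from 1 library each and were not held to 2 replicates. Loss of a mark and a shallower library cannot be told apart.

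**Figure D4:**
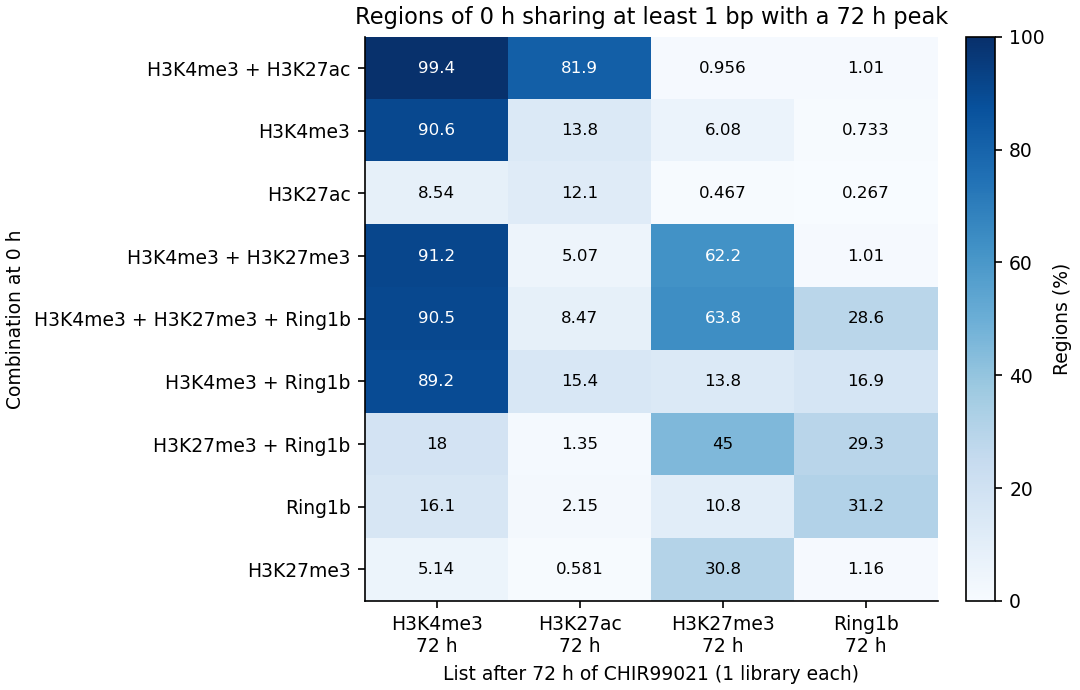
Percent of the regions of each 0 h combination (rows) that shared at least 1 bp with a peak of each mark after 72 h of CHIR99021 (columns, 1 library each). H3K27ac is listed again at 81.9% of regions shared with H3K4me3 and at 12.1% of regions where it was alone.

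At single genes the combinations could be read in windows of the gene and 5 kb on each side. These windows, and those of the Hox clusters, rest on general knowledge of the mm9 assembly. The Hox windows had no check of length, while the gene lengths differed by at most 80 bp from the GRCm38 table for Pou5f1, Sox2, Nanog and T, but by 1227 bp for Actb and 886 bp for Gapdh. At T, the region chr17:8625019-8629098 (4080 bp) covered the gene start and carried H3K4me3 (fold 16.2), H3K27me3 (6.26 and 8.54 in the 2 replicates) and Ring1b (5.87 and 5.65). It was open in EpiSCs and in both embryo libraries. At 72 h H3K4me3 was listed there, and H3K27me3 and Ring1b were not.

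The pluripotency genes were not alike. Sox2 had 3 regions with H3K4me3 and H3K27ac, of which chr3:34548848-34551063 covered the gene start with folds of 24.8 for H3K4me3 and 5.86 for H3K27ac. At Pou5f1 the region chr17:35642363-35645331 covered the start and carried H3K4me3 (fold 12.2, percentile 25.8) without H3K27ac, whereas the wild-type list had H3K27ac there. Nanog had H3K4me3 at its start (chr6:122657504-122659303, fold 15.7) and 2 regions with H3K27ac alone, chr6:122652491-122653092 and chr6:122665478-122665928. All 7 of these regions were open in EpiSCs and in both embryo libraries. At 72 h H3K4me3 was listed at all 3 Sox2 regions, with Ring1b at chr3:34551325-34553123, and not at the starts of Pou5f1 and Nanog. The genes used by every cell had H3K4me3 and H3K27ac, at chr5:143666430-143668523 for Actb (folds 34.3 and 10.7) and at chr6:125113686-125117011 for Gapdh (18.4 and 6.52), and Actb had a second region with H3K27ac alone beside it. Both regions with H3K4me3 kept both marks at 72 h.

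The 4 Hox clusters, arrays of genes that pattern the body axis and classical Polycomb targets, held no region that was counted as bivalent. In 535 kb they held 98 merged regions, of which none lay on an input peak. H3K4me3 alone was found in 26, Ring1b alone in 14, H3K4me3 with Ring1b in 3, H3K27me3 alone in 2, H3K27me3 with Ring1b in 1 and H3K4me3, H3K27ac and Ring1b in 1, while 51 had a Polycomb peak in 1 replicate. The clusters thus held 14 of the 93 regions with Ring1b alone, in 535 kb of a mapped extent of 2638.7 Mb. No region held H3K4me3 together with H3K27me3 in both replicates. H3K27me3 had 6 peaks there in replicate 1 and 15 in replicate 2, and Ring1b had 51 and 31. How many regions with H3K4me3 alone or Ring1b alone in the clusters held H3K27me3 in 1 replicate was not counted. Depth is unknown, so a missed H3K27me3 peak and an absent mark cannot be told apart here. HoxA had 7 regions with H3K4me3 and 5 with Ring1b, HoxB 9 and 7, HoxC 5 and 3, and HoxD 9 and 4. Of the 30 regions with H3K4me3, 24 were open in EpiSCs, and of the regions without H3K4me3, 9 were open. Genome-wide, 96.7% of regions with H3K4me3 were open. At 72 h, H3K4me3 was listed at 51 of the 98 regions, H3K27ac at 12, Ring1b at 3 and H3K27me3 at 0. Over all merged regions the shares were 72.3%, 38.4%, 2.31% and 9.35%, in the same order.

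By length and by fold, the leading regions away from input peaks were as follows. The longest bivalent region with Ring1b was chr12:57788728-57800040, 11313 bp, with folds of 10.1 for H3K4me3, 5.62 and 7.53 for H3K27me3 and 8.23 and 8.04 for Ring1b. The highest Ring1b in that combination was at chr4:114728779-114732224, with 24.5 in replicate 1 and 27 in replicate 2. In H3K27me3 with Ring1b the highest was chr6:83018521-83023033, with 24.0 and 48.0, and H3K27me3 and Ring1b were both listed there at 72 h. In Ring1b alone the highest was chr2:174122668-174123381, with 9.17 in replicate 1 and 30.4 in replicate 2, so that its rank rests on replicate 2. The longest region with Ring1b alone, chr19:43673886-43677082 (3197 bp), had H3K27me3 in replicate 2.

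Bivalent regions without Ring1b were led by chr9:58045142-58052285 in length (7144 bp) and chr4:36896516-36900689 in H3K27me3 (7.59 and 14.9), and the former had Ring1b in replicate 1. For H3K27me3 alone they were chr15:103003585-103007493 (3909 bp) and chr1:172999529-173000229 (11.3 and 12.8), and both were closed in EpiSCs. For H3K4me3 with Ring1b they were chr12:120084555-120089146 (4592 bp) and chr13:99123485-99126461 (11.5 and 10.8), and both had H3K27me3 in replicate 2 (folds 7.77 and 5.15). H3K27ac alone was led by chr9:72487129-72489227 in both respects (2099 bp, fold 11), and it had H3K27ac in wild-type cells and at 72 h. In H3K4me3 with H3K27ac the highest H3K27ac was at chr16:20097482-20098637 (23.7), and the longest region was chr18:75527031-75534079 (7049 bp). H3K4me3 alone reached a fold of 64.6 at chr13:77847544-77848824 and 5665 bp at chr12:109238923-109244587. The combination of H3K4me3, H3K27ac and H3K27me3 was longest at chr8:35867930-35873897 (5968 bp) and had its highest H3K27me3 at chr6:51382447-51384053 (8.64 and 12.0). All 4 marks away from inputs met over 6301 bp at chr8:94878628-94884928 and with the highest Ring1b at chr5:75470242-75473770 (8.14 and 13.1). All of the regions named here for a combination with H3K4me3 were open in EpiSCs and in both embryo libraries.

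The X chromosome stood apart from the 19 autosomes in the make-up of its H3K4me3 regions. H3K27ac was present at 199 of its 596 H3K4me3 regions (33.4%), whereas the autosomes ranged from 51.3% (chromosome 15) to 62.0% (chromosome 16). H3K27me3 was present at 11 (1.85%), against 5.87% (chromosome 14) to 11.1% (chromosome 18). Wild-type H3K27ac was found at 39.3% of the X regions and at 46.8% to 58.1% on autosomes, and H3K27ac at 72 h at 30.4% against 45.8% to 58.3%. All H3K4me3 regions of the X were open in 92.45%, below the autosomal range of 95.01% to 98.0%, and those with H3K4me3 alone in 89.7%, within the autosomal range of 89.5% to 96.6%. H3K4me3 was also weaker on the X, with a median percentile of 36.0 against 42.1 to 59.3. Within quartiles of H3K4me3 fold the difference remained, with H3K27ac at 10.8%, 34.5%, 53.9% and 69.7% of X regions against 17.8%, 45.7%, 69.8% and 88.7% of autosomal ones, from the lowest quartile to the highest, and the 95% intervals did not overlap in any quartile. The labels give no sex for the cell lines.

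**Figure D5:**
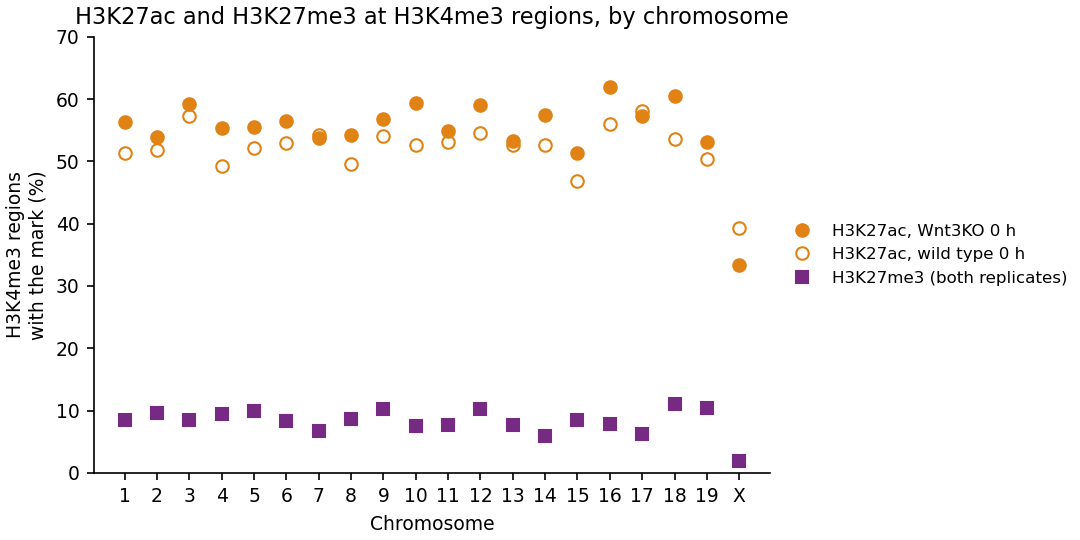
Percent of H3K4me3 regions on each chromosome that held H3K27ac in Wnt3KO EpiSCs (filled circles), H3K27ac in wild-type EpiSCs (open circles) or H3K27me3 in both replicates (squares). The X chromosome is lowest for all 3, at 33.4%, 39.3% and 1.85%.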

How the data were processed

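Each file was the list of peaks of 1 library in mm9 coordinates, and 16 lists were used. Per the submitters' processing notes, the ChIP-seq lists involved MACS2 2.1.0, Bowtie 1.1.0 and SAMtools 0.1.19. For the ATAC-seq lists the same notes name MACS2 2.1.0, SAMtools 0.1.19, Bowtie2 2.1.0 and cutadapt 1.8.1, and they give no roles. Which library served as the background of the peak caller is not given in the sources that were used. The deposited fold enrichment is the ratio of signal to background from the authors' peak caller, and it was used to rank peaks within a list. Peaks also carry −log10 p, and −log10 q after correction for multiple tests, both as deposited by the authors. These values served to choose each region's strongest peak and to set thresholds, and the lowest −log10 p in the 6 lists was 5.76.

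Peaks on the 19 autosomes and the X chromosome were merged by shared bases with Python 3.11.15, numpy 2.4.6, pandas 2.3.3 and scipy 1.17.1, and 43 mitochondrial peaks of the 6 lists were left out. The expected overlap is exact for regions of the same lengths placed with equal chance along their chromosome, with no random draw. At single bases it is the product of the marks' covered fractions per chromosome, counting bases covered in both replicates for H3K27me3 and Ring1b. Combinations and expectations were checked on simulated intervals with known answers. Regions named are, for combinations of at least 20 regions, the longest and the one with the highest fold in the rarest mark, not within 10 kb of an input peak. The 4 Hox clusters, Pou5f1, Sox2, Nanog, T, Actb and Gapdh were named whatever their values. Gene starts were taken from the same hand-placed windows and from the strand in the RefSeq table, which has no promoter for Actb. The members, genes and lists were chosen with earlier results of these data known. The division by H3K4me3 fold, by chromosome and by length was chosen after seeing the data.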

Additional observations from a re-analysis of the deposited data

How the results depend on the processing

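Of 150 values under alternatives for 9 counts and 5 open shares, 127 stayed within 1.5 times the count or within the main 95% interval of the share. Joining peaks within 1 kb gave 24 regions with H3K4me3 and Ring1b, 350 with H3K27me3 alone and 26 with Ring1b alone, and open shares of 95.8% for H3K4me3 alone and 95.8% for bivalent regions with Ring1b. Leaving out peaks on inputs gave 15 regions with all 4 marks. The ATAC-seq summit rule gave 70.8% (H3K4me3 alone), 87.4% (with H3K27ac), 17.5% (H3K27ac alone), 84.1% (bivalent with Ring1b) and 4.07% (H3K27me3 alone), and the rule of 50% of the shorter peak gave 25.04% for the last. The 50% rule also gave 539 bivalent regions without Ring1b, against 789, which is within the limit of 1.5 times. Leaving out each Polycomb replicate in turn gave these ranges. Counts ran from 985 to 3194 for H3K27me3 alone, 703 to 1262 for bivalent regions without Ring1b, 378 to 466 with it, 30 to 167 for H3K4me3 and Ring1b, 51 to 303 for Ring1b alone, 78 to 88 for all 4 marks, 5532 to 6078 for H3K4me3 alone, 8604 to 8680 for H3K4me3 with H3K27ac and 1487 to 1497 for H3K27ac alone. Open shares ran from 6.45% to 9.95% for H3K27me3 alone, 91.8% to 92.6% for bivalent regions with Ring1b, 93.3% to 93.4% for H3K4me3 alone, 99.76% to 99.78% for H3K4me3 with H3K27ac and 73.9% to 74.0% for H3K27ac alone. Judging a mark by 1 replicate asks less of that mark, but the counts of combinations went either way. Ring1b alone, for example, ran from 51 to 303 against 93 in the main count. None of these 14 results moved beyond its limit with a −log10 q of at least 5, with replicate peaks that share a base, with replicate lists of equal length or with ATAC-seq peaks of −log10 q of at least 5. No paired analysis was possible because the results come from no test. Depth is unknown, so absent marks carry no limit.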

Other observations

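Regions with a Polycomb peak in 1 replicate differed by mark. Of the 2782 regions with no counted mark, 1840 had H3K27me3 in replicate 2, 598 had H3K27me3 in replicate 1, 104 had Ring1b in replicate 1, 131 had Ring1b in replicate 2, and 109 had 1 replicate of each feature. Those with Ring1b were open in EpiSCs in 21.2% (replicate 1) and 16.8% (replicate 2) of cases, and those with H3K27me3 in 3.51% and 4.24%. Their median lengths were 347.5, 386.0, 351.0 and 378.0 bp, in the same order. Of all 2782, 71.6% lay within 10 kb of an H3K4me3 peak and 51.2% within 10 kb of H3K27me3 counted in both replicates, where uniform placement would give 11.3% and 1.54%.

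Polycomb peaks of 1 replicate also lay on regions counted under other marks. H3K27me3 in 1 replicate was present at 532 of the regions with H3K4me3 alone, at 97 of those with H3K4me3 and H3K27ac and at 8 of those with H3K27ac alone. For Ring1b the numbers were 120, 88 and 12. H3K27me3 of 72 h was listed at 365 regions (6.08%) with H3K4me3 alone at 0 h, against 0.167% by uniform placement and 9.35% of all merged regions. How many of these 365 were among the 532 above was not counted. Of the 222 regions with H3K27me3 and Ring1b, 40 (18.0%) had H3K4me3 at 72 h, against 2.12% by uniform placement and 72.3% of all merged regions.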
